A study of Mus musculus with 4 samples.

Results

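Inscuteable, the Par polarity complex and the proteins that position the mitotic spindle were read as a set of 10 genes, Insc, Pard3, Pard6a, Pard6b, Prkci, Gpsm1, Gpsm2, Numa1, Numb and Llgl1, out of 27178 genes in the deposited table. Each member was found by its symbol and matched 1 row. The set was chosen by the values of Insc, its CPM at the wavefront and behind it, so the difference of Insc is given as a description with no test. The other 9 genes were listed for their roles, with earlier results of these data known.

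RNA came from neural crest-derived cells of the gut of Wnt1-tdT mice at 11.5 days post coitum, sorted by flow cytometry for the tdT fluorescent reporter that marks derivatives of the neural crest. Such cells colonise the gut from front to back and give rise to its nerve cells and glia. The wavefront group (2 libraries) held cells at the leading edge of that migration, and the trailing group (2 libraries) held cells lying 1 to 1.5 mm behind it, with the same reporter, stage and sort in both groups. The labels do not say whether embryos were pooled or whether replicates came from separate litters, so the p-values reflect the spread among libraries that may be technical replicates.

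Insc is an adaptor protein. In Drosophila neuroblasts, Inscuteable links the Par complex (the counterparts of Pard3, Pard6 and the atypical protein kinase C Prkci) at the cell cortex to the LGN counterpart, which sets the axis of the mitotic spindle and with it the fates of the daughter cells. In mammals, LGN (Gpsm2) and its relative AGS3 (Gpsm1) bind the alpha subunits of Gi proteins at the membrane, and LGN holds NuMA (Numa1), which recruits the motor dynein to pull on astral microtubules. Insc and NuMA bind the same part of LGN. Numb, an endocytic adaptor that restrains Notch, and Llgl1, a substrate of atypical protein kinase C, act downstream of the polarity complex.

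The libraries were shallow, and wavefront replicate 2 stood apart. Reads outside ribosomal RNA numbered 452144 and 114972 in wavefront replicates 1 and 2, and 386540 and 330644 in trailing replicates 1 and 2. Ribosomal RNA took 15.6% and 55.5% of reads at the wavefront, against 24.4% and 26.1% behind it. All 10 listed markers of enteric crest cells had reads in every library. Red blood cell markers had 110 reads in wavefront replicate 2 and 0 to 2 in each of the other libraries. One read was worth 1.84 and 3.84 CPM (the deposited unit, reads scaled to a common library total) at the wavefront and 1.93 and 2.21 CPM behind it. Values below are deposited CPM unless they are said to be CPM outside ribosomal RNA, which divide by the reads left after ribosomal RNA is taken out. Fold changes of the members are also given without wavefront replicate 2. Those of other genes, pooled read ratios and marker values are given with it only.

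Insc RNA was lower in both wavefront libraries than in either trailing library. Insc (chromosome 7, 114743694 to 114850383, plus strand, GRCm38) had 12.9 and 11.5 CPM in wavefront replicates 1 and 2, from 7 and 3 reads, against 94.8 and 73.0 CPM in trailing replicates 1 and 2, from 49 and 33 reads. The 2 locations did not overlap. Outside ribosomal RNA the values were 15.5 and 26.1 CPM at the wavefront and 127 and 99.8 CPM behind it. Pooled over libraries on that scale, 10 wavefront reads stood against 82 trailing reads, a trailing over wavefront ratio of 6.48 (95% exact binomial interval 3.35 to 14.0, for counting error only). The log2 fold change, wavefront over trailing, was -2.67 ± 0.43 SE in limma on log2(CPM + 1) and -2.60 ± 0.46 SE in edgeR on recovered reads. Without wavefront replicate 2 these were -2.60 and -2.72. In the authors' deposited table, whose folds are shrunken, the log2 fold change of Insc was -1.42 with a standard error of 0.459. The annotated span of Insc shares no exon base with another gene. In bulk RNA, fewer cells that make a transcript and less of it per cell cannot be told apart.

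**Figure D1:**
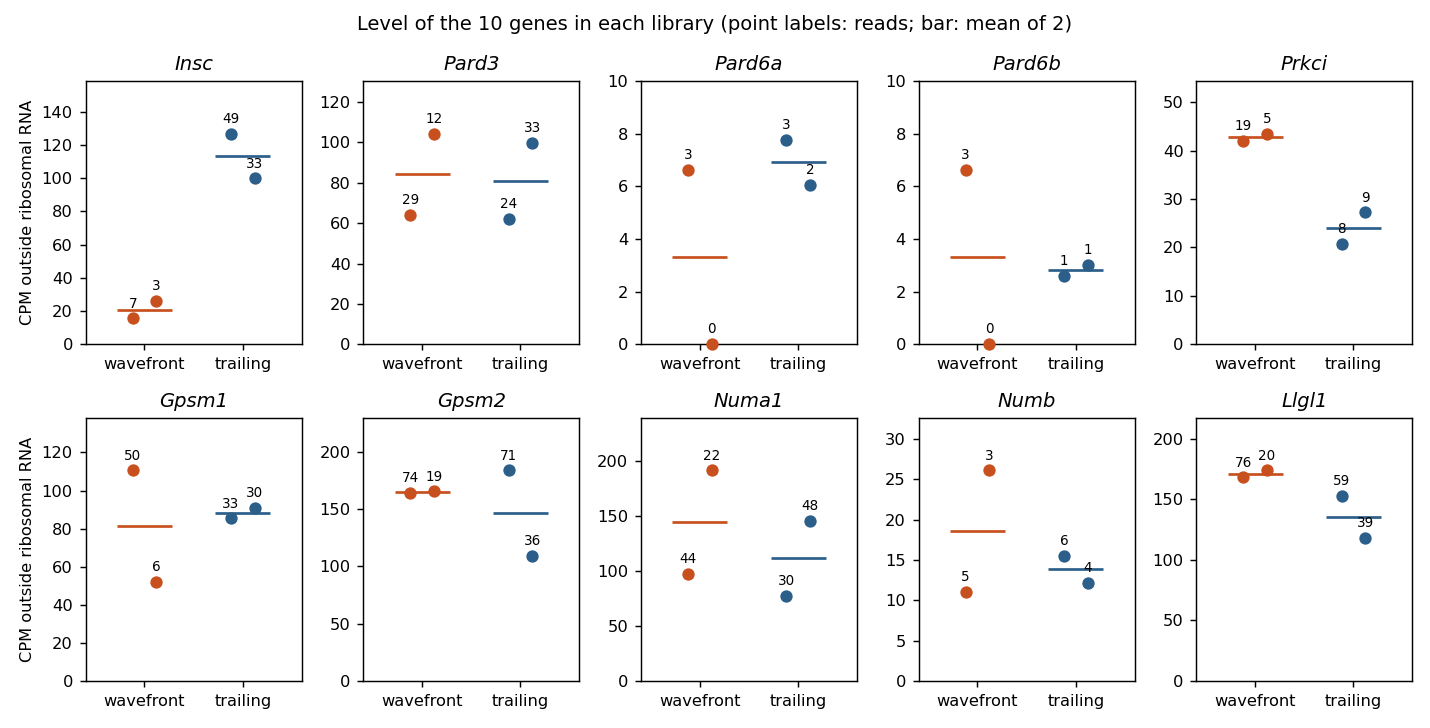
CPM outside ribosomal RNA (vertical axis, linear from 0, a scale of its own for each gene) of the 10 genes in 2 wavefront and 2 trailing libraries, with the number of reads at each point and the mean of 2 as a bar. Insc lies at 15.5 and 26.1 CPM at the wavefront and at 127 and 99.8 CPM behind it, while Pard3, Gpsm1, Gpsm2, Numa1 and Numb overlap between locations.

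None of the other 9 genes passed the test for a difference between locations. In limma on log2(CPM + 1), with Benjamini-Hochberg adjustment over all 12519 genes tested, 0 of the 9 passed, and 0% of all genes did. In edgeR's quasi-likelihood test on recovered reads, 5 of the 9 had enough reads to be tested and 0 passed, where 1.74% of all 5759 genes tested did (1.34% lower and 0.399% higher at the wavefront). At an unadjusted p under 0.05 the count was also 0 in limma, edgeR and DESeq2, where 6.85%, 9.9% and 1.1% of all genes with a p-value stood. With 9 or fewer genes, a count of 0 is near those shares and says nothing particular to the members. The median log2 fold change of the 9 was -0.07 in limma, against -0.35 over all genes, and that of the 5 tested in edgeR was 0.18, against 0.01 over all genes. In deposited CPM, wavefront and trailing libraries did not overlap for 1 of the 10 genes, Insc, which chose the set. Over the genes tested by counts 33.2% did not overlap, 27.0% with the wavefront lower. Outside ribosomal RNA, Insc, Prkci and Llgl1 did not overlap, and over the genes tested by counts 39.0% did not, 17.3% with the wavefront higher. Prkci, Numb, Pard6a and Pard6b were not among the genes tested by counts. The counts over the 10 genes and these shares therefore cover unlike sets.

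Gpsm2 (LGN), the direct partner of Insc, was present at both locations. Gpsm2 (chromosome 3, 108678638 to 108722309, minus strand) had 136 and 73.0 CPM at the wavefront, from 74 and 19 reads, against 137 and 79.6 CPM behind it, from 71 and 36 reads. The locations overlapped, and replicate 2 was the lower of the 2 libraries in each. Outside ribosomal RNA the wavefront libraries lay together at 164 and 165 CPM, between the trailing values of 184 and 109 CPM. The edgeR log2 fold change was 0.18 (95% interval -0.47 to 0.83, edgeR adjusted p = 0.92), and in limma it was -0.07 (-1.25 to 1.12). Without wavefront replicate 2 these were 0.28 and 0.38. Its exons share 203 bases with those of Clcc1 on the other strand, which had 18 and 5 wavefront reads and 13 and 8 trailing reads. The library kit does not keep the strand, so reads in such a stretch cannot be told apart.

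Gpsm1 (AGS3), the relative of LGN, differed more between the wavefront libraries than between locations. It had 92.1 and 23.1 CPM at the wavefront, from 50 and 6 reads, against 63.8 and 66.4 CPM behind it, from 33 and 30 reads. Both trailing libraries lay between the wavefront libraries. The log2 fold change was 0.14 in edgeR (95% interval -0.56 to 0.84, edgeR adjusted p = 0.948) and -0.48 in limma (-2.08 to 1.12). Without wavefront replicate 2 it was 0.47 in edgeR and 0.49 in limma, and without wavefront replicate 1 it was -0.83 in edgeR. Gpsm1 lies on chromosome 2 (26315515 to 26348237, plus strand) and shares 117 exon bases with Dnlz on the other strand.

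Numa1, which encodes NuMA, the link from LGN to dynein, had 81.0 and 84.5 CPM at the wavefront, from 44 and 22 reads, against 58.0 and 106 CPM behind it, from 30 and 48 reads. The trailing libraries lay on either side of the wavefront libraries. The edgeR log2 fold change was 0.23 (95% interval -0.46 to 0.93, edgeR adjusted p = 0.902), and -0.025 without wavefront replicate 2. Numa1 lies on chromosome 7 (101934111 to 102014964, plus strand), as Insc does.

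Of the Par complex, Pard3 alone was tested by counts. Pard3, the scaffold that Insc binds, had 53.4 and 46.1 CPM at the wavefront, from 29 and 12 reads, against 46.4 and 73.0 CPM behind it, from 24 and 33 reads. The locations overlapped, and the edgeR log2 fold change was -0.05 (95% interval -0.79 to 0.69, edgeR adjusted p = 0.982), and -0.17 without wavefront replicate 2. Pard3 lies on chromosome 8 (127063893 to 127612286, plus strand).

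Prkci, the atypical protein kinase C iota, had 35.0 and 19.2 CPM at the wavefront, from 19 and 5 reads, against 15.5 and 19.9 CPM behind it, from 8 and 9 reads. Deposited CPM overlapped between locations. Outside ribosomal RNA the wavefront values of 42.0 and 43.5 CPM were above the trailing values of 20.7 and 27.2 CPM. The pooled read ratio on that scale, wavefront over trailing, was 1.79 (95% exact binomial interval 0.920 to 3.54). The limma log2 difference was 0.54 (95% interval -0.75 to 1.83, limma adjusted p = 0.822), and Prkci had too few reads for the edgeR test. Without wavefront replicate 1 the difference was 0.12 (limma adjusted p = 0.839), and without wavefront replicate 2 it was 0.96 (limma adjusted p = 0.573). Prkci lies on chromosome 3 (30995747 to 31052959, plus strand).

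The 2 Pard6 genes of the set, whose products join Prkci to the small GTPase Cdc42, were at the floor of detection. Pard6g, outside the set, had more reads and is given below. Pard6a had 3 and 0 reads at the wavefront and 3 and 2 behind it, and Pard6b had 3 and 0 reads at the wavefront and 1 and 1 behind it. In wavefront replicate 2, a count of 0 allows up to 11.5 CPM (3 reads), above the 1.93 to 5.80 CPM seen in the trailing libraries. A difference between locations in either gene was not detectable at this depth, and the 95% intervals of their limma log2 differences were wide, -3.86 to 1.36 for Pard6a and -2.90 to 2.37 for Pard6b.

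Of the 2 genes downstream of the Par complex, Numb had few reads and Llgl1 many. Numb (chromosome 12, 83794034 to 83921934, minus strand) had 9.21 and 11.5 CPM at the wavefront, from 5 and 3 reads, against 11.6 and 8.85 CPM behind it, from 6 and 4 reads. Those values overlapped, and the limma log2 difference was 0.02 (95% interval -1.48 to 1.52, limma adjusted p = 0.996). Llgl1 had 140 and 76.9 CPM at the wavefront, from 76 and 20 reads, against 114 and 86.3 CPM behind it, from 59 and 39 reads. Outside ribosomal RNA the wavefront libraries, at 168 and 174 CPM, were above the trailing libraries, at 153 and 118 CPM. The edgeR log2 fold change of Llgl1 was 0.35 (95% interval -0.28 to 0.98, edgeR adjusted p = 0.816). Without wavefront replicate 2 it was 0.44, with edgeR adjusted p = 0.695. Llgl1 lies on chromosome 11 (60699723 to 60714186, plus strand) and shares 64 exon bases with Flii on the other strand, which had 42 and 19 wavefront reads and 51 and 36 trailing reads.

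**Figure D2:**
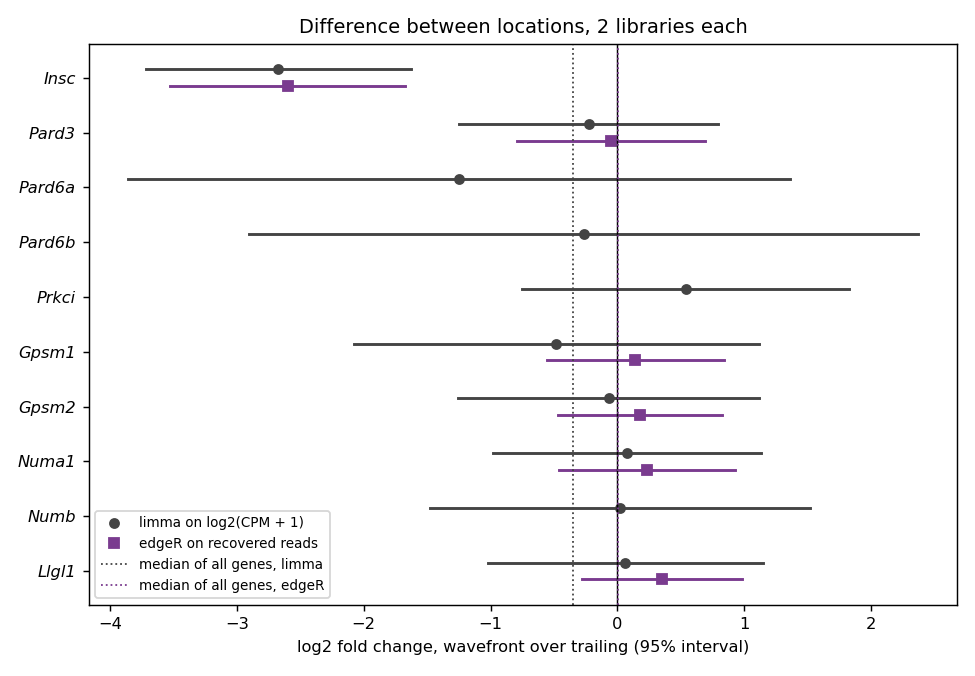
Log2 fold change, wavefront over trailing (horizontal axis), of the 10 genes in limma (circles) and, for the 6 genes with enough reads, in edgeR (squares), with 95% intervals from 2 libraries per location; dotted lines mark the median of all genes in each fit. Insc lies at -2.67 and -2.60; its values chose the set, so its intervals are a description and not a test. The intervals of the other 9 genes include 0.

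Dividing by the length of exons allows levels of different genes to be set side by side. On that measure Insc had a different place among the 10 genes at the 2 locations. The Insc values chose the set and rest on 7 and 3 reads at the wavefront, so its change of place is a description. At the wavefront Gpsm2 was the highest, at 42.1 ± 0.288 CPM outside ribosomal RNA per kilobase of annotated exon (mean ± SD, n = 2, here and below). Llgl1 followed at 35.2 ± 0.853, Numa1 at 18.2 ± 8.40 and Gpsm1 at 15.1 ± 7.67. Prkci was at 7.70 ± 0.187, Pard3 at 5.81 ± 1.96, Insc at 5.59 ± 2.02 and Numb at 4.74 ± 2.71. From Numa1 down to Numb, the mean ± SD range of each gene overlapped that of the next in that order. In single libraries, Gpsm1 (20.5 and 9.69) lay above Prkci (7.57 and 7.83), and Prkci above Pard3 (4.42 and 7.20). Behind the wavefront, Gpsm2 was at 37.4 ± 13.5, Insc at 30.4 ± 5.12 and Llgl1 at 27.8 ± 5.04 on the same length-scaled measure, and these 3 did not differ beyond their spread. Gpsm1 was at 16.4 ± 0.704 and Numa1 at 14.1 ± 6.03 there, within their spread, and the remaining 5 genes were at 5.58 or less. Exon length was taken over all annotated transcripts, so a gene with long alternative exons, such as Pard3 with 14506 bases, is set low on this scale.

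**Figure D3:**
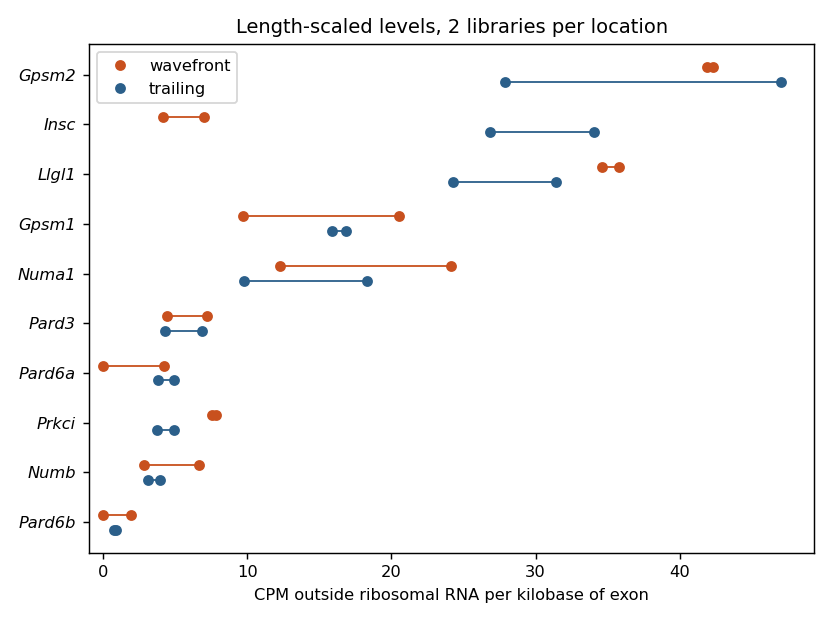
CPM outside ribosomal RNA per kilobase of annotated exon (horizontal axis) for the 10 genes, ordered by their trailing mean, with 2 wavefront libraries above 2 trailing libraries and a line joining each pair. Behind the wavefront Insc stands beside Gpsm2 and Llgl1, and at the wavefront beside Pard3 and Numb. The Insc values chose the set, so its place is a description.

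Ratios of reads within a library do not depend on how libraries are scaled or on their ribosomal share. Insc gave 2.26% of the reads of the 10 genes in wavefront replicate 1 (95% exact binomial interval 0.913 to 4.60%) and 3.33% in wavefront replicate 2 (0.693 to 9.43%). In trailing replicates 1 and 2 it gave 17.3% (13.0 to 22.2%) and 14.0% (9.87 to 19.2%). For each Gpsm2 read there were 0.0946 and 0.158 Insc reads at the wavefront, against 0.690 and 0.917 behind it. The 95% intervals of the wavefront libraries were 0.0368 to 0.205 and 0.0299 to 0.536, and those of the trailing libraries were 0.470 to 1.01 and 0.554 to 1.51. The interval of wavefront replicate 1 lay below both trailing intervals, and that of wavefront replicate 2, with 3 Insc reads, overlapped the one of trailing replicate 1. Against Llgl1 the ratios were 0.0921 and 0.150 at the wavefront and 0.831 and 0.846 behind it. Against Gpsm1, which itself had 6 reads in wavefront replicate 2, the interval of that library (0.0809 to 2.34) spanned both trailing ratios, 1.48 and 1.10. These ratios use the Insc reads that chose the set and are a description.

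Markers of enteric neurons were lower where Insc was lower. The 12 listed neuron markers summed to 1623 and 1461 CPM outside ribosomal RNA at the wavefront, with 12 and 10 of them detected (Dcx and Th at 0 in wavefront replicate 2), against 5164 and 5768 CPM behind it, with all 12 detected. Per 1000 reads of these markers, Insc had 9.54 and 17.9 reads at the wavefront (95% exact binomial intervals 3.82 to 19.7 and 3.65 to 53.1), against 24.5 and 17.3 behind it (18.1 to 32.6 and 11.9 to 24.4). On that measure the locations overlapped through wavefront replicate 2, which had 3 Insc reads. Wavefront replicate 1 lay below both trailing values, with an interval that overlapped both of theirs. Among the neuron markers, Tubb3 had 266 and 62 reads at the wavefront and 783 and 668 behind it. Gap43 had 229 and 54 reads against 218 and 245, and Dbh had 13 and 3 against 271 and 237. The 10 crest cell markers include Ret and Sox10. Per 1000 of their reads, Insc had 2.78 and 8.11 reads at the wavefront, against 26.9 and 27.0 behind it. Those values did not overlap. The 95% intervals were 1.12 to 5.74 and 1.66 to 23.9 at the wavefront, and 19.8 to 35.7 and 18.5 to 38.2 behind it. The interval of wavefront replicate 2, with 3 Insc reads, overlapped both trailing intervals. Ratios to both marker lists use the Insc reads that chose the set and are a description. Ret gave 1413 of the 2518 crest marker reads in wavefront replicate 1 and 155 of 370 in wavefront replicate 2, against 864 of 1823 and 545 of 1220 in the trailing libraries. Sox10 had 14 and 4 reads at the wavefront and 22 and 26 behind it. The crest markers themselves summed to 5569 and 3218 CPM outside ribosomal RNA at the wavefront and 4716 and 3690 CPM behind it, and those ranges overlapped. The part of neuron content in the Insc values was not tested.

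**Figure D4:**
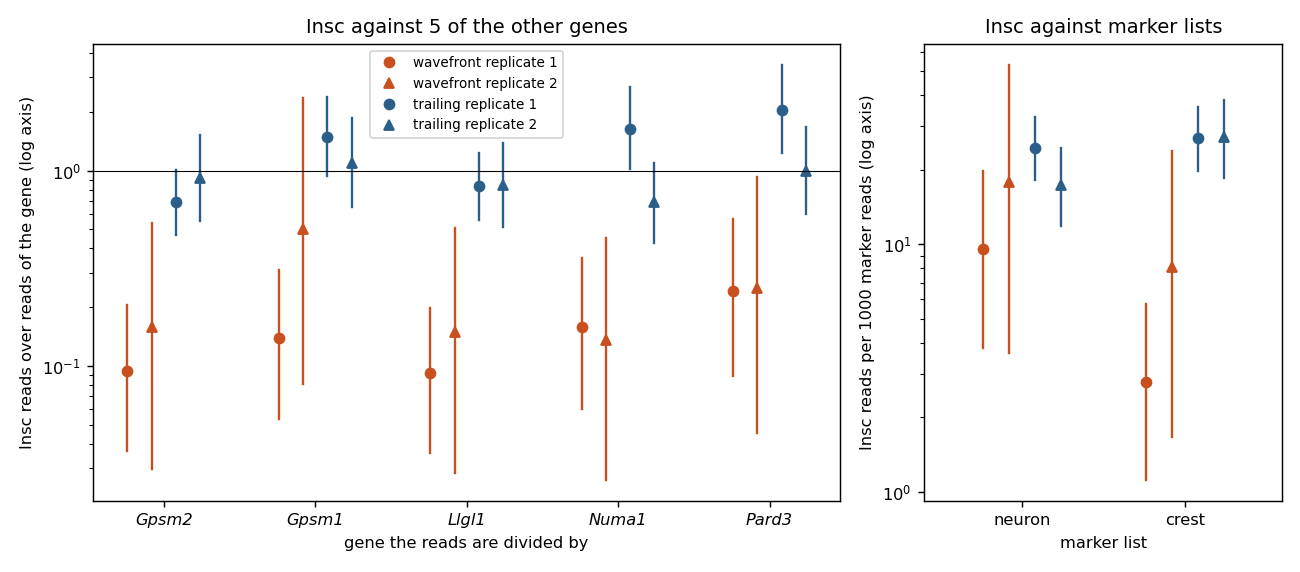
Insc reads divided by the reads of 5 other genes of the set (left) and per 1000 reads of 12 enteric neuron and 10 crest cell markers (right), on log axes, in 2 wavefront and 2 trailing libraries, with 95% exact binomial intervals for counting error. Wavefront ratios lie below trailing ratios for each of the 5 genes and for crest markers. They overlap for neuron markers, at 9.54 and 17.9 against 24.5 and 17.3. For crest markers the interval of wavefront replicate 2 overlaps those of both trailing libraries.

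Markers of gut mesenchyme and gut epithelium were higher in both wavefront libraries, while those of endothelium and leukocytes were few at both locations. Gut mesenchyme markers summed to 504 and 1339 CPM outside ribosomal RNA at the wavefront, with 7 and 10 of 12 detected, against 230 and 236 CPM behind it, with 6 of 12 detected in each; Twist1 and Wt1 were at 0 in every library. In wavefront replicate 1, Col3a1 and Des gave 132 and 73 of the 228 mesenchyme marker reads, and Acta2, Foxf1 and Foxf2 were at 0. Gut epithelium markers had 12 and 9 reads at the wavefront and 3 and 3 behind it. Endothelium markers summed to 64.1 and 87.0 CPM outside ribosomal RNA at the wavefront and 44.0 and 84.7 CPM behind it, and leukocyte markers to 11.1 and 34.8 CPM at the wavefront and 12.9 and 12.1 CPM behind it, with overlap in both. Without wavefront replicate 2, which had the highest mesenchyme and red blood cell values, 0 of the 9 genes passed in limma, where 0 of 12517 genes did, and 0 of the 6 tested passed in edgeR, where 143 of 7066 did. In that fit the lone wavefront library is assumed to vary like the trailing libraries. The part of these cells in the members' values was not tested.

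The 5 genes whose pattern over the 4 libraries was most like that of Insc were Miat, Mllt11, Stard13, Grk3 and Smpd3. Likeness was the distance between centred log2 scaled CPM, which was 0.323, 0.324, 0.340, 0.354 and 0.428 for these genes in that order, against a median of 2.28 over the 5758 genes compared. Miat, a long noncoding RNA, had 11 and 4 reads at the wavefront and 51 and 43 behind it. Mllt11 had 15 and 5 reads at the wavefront and 67 and 57 behind it. The kinase Grk3, which acts on G protein-coupled receptors, had 3 and 1 reads at the wavefront and 28 and 21 behind it. Smpd3, a neutral sphingomyelinase, had 6 and 2 wavefront reads and 36 and 35 trailing reads. Stard13 had 3 and 1 wavefront reads and 25 and 13 trailing reads. With 4 libraries this is a description of profiles that share libraries and depth.

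Beyond the 10 genes, 77 others in 7 lists of spindle orientation and cell polarity genes were read in the same fits. Limma tested 69 of them and edgeR 44, and 0 rose and 0 fell in either, while 7 of the 69 and 3 of the 44 had an unadjusted p under 0.05, where 6.85% and 9.9% of all genes tested did. DESeq2 on recovered reads called 0 as well, with 0 at an unadjusted p under 0.05, where 1.1% of all genes with a p-value stood. The median log2 fold change of the 44 was 0.02 in edgeR, against 0.01 over all genes tested, and that of the 69 was -0.33 in limma, against -0.35.

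Among partners of Insc and LGN and the Gi proteins 0 passed. Of 13 listed, 5 were tested in edgeR, and all 5 had log2 fold changes below 0, with a median of -0.32, as did all 9 tested in limma, with a median of -0.71. Over all genes tested, 2847 of 5759 were below 0 in edgeR and 8858 of 12519 in limma. Gnai3, a Gi alpha subunit to which LGN binds, had 197 and 48 reads at the wavefront and 234 and 151 behind it (log2 fold change -0.30 ± 0.32 SE, edgeR adjusted p = 0.858). Ric8a, a chaperone and exchange factor of Gi alpha, was at -0.32 ± 0.38 SE (edgeR adjusted p = 0.87).

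Among dynein and dynactin genes, whose products pull on the spindle, 0 passed. Of 17, 16 were tested by counts, 6 above 0 and 10 below, with a median edgeR log2 fold change of -0.22 and a range of -1.04 to 0.36. In limma on deposited CPM 2 were above 0 and 14 below, with a median of -0.79. For all genes tested, 2912 were above 0 and 2847 below in edgeR, and 3661 above and 8858 below in limma. Dync1h1, the dynein heavy chain, had 82 and 47 reads at the wavefront and 82 and 86 behind it (0.20 ± 0.32 SE, edgeR adjusted p = 0.908). Dctn2, the dynamitin subunit of dynactin, had 77 and 20 reads at the wavefront and 95 and 88 behind it (-0.55 ± 0.31 SE, edgeR adjusted p = 0.598).

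Among spindle pole and mitotic kinase genes 0 passed. Of 11, 10 were tested by counts, 9 above 0 and 1 below, with a median edgeR log2 fold change of 0.20, while in limma on deposited CPM 6 were above 0 and 5 below, with a median of 0.08. All genes tested split 2912 above and 2847 below in edgeR, and 3661 above and 8858 below in limma. Tpx2, which activates Aurora A on spindle microtubules, had 123 and 33 reads at the wavefront and 63 and 74 behind it (0.55 ± 0.30 SE, edgeR adjusted p = 0.57). Plk1, the polo-like kinase, was at 0.18 ± 0.31 SE (edgeR adjusted p = 0.91).

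Other Par, Crumbs and Scribble genes were mostly below the filter on reads. Among other Par genes 3 of 10 were tested by counts, with a median edgeR log2 fold change of 0.23, while the median of all 10 in limma was -0.20. Cdc42, the GTPase that activates the Par complex, had 465 and 93 reads at the wavefront and 413 and 263 behind it (0.00 ± 0.35 SE, edgeR adjusted p = 1.00). Pard6g, the third Pard6 gene, had 33 and 11 reads at the wavefront and 26 and 20 behind it (0.34 ± 0.37 SE, edgeR adjusted p = 0.86). Of 8 Crumbs complex genes 2 were tested by counts, Lin7c at 0.02 ± 0.31 SE and the scaffold Mpp5 at -0.13 ± 0.53 SE. Of 7 Scribble, Dlg and Lgl genes 2 were tested, Dlg3 at 1.18 ± 0.58 SE (edgeR adjusted p = 0.491) and Dlg5 at -0.34 ± 0.65 SE. Dlg3 had 15 and 7 reads at the wavefront and 7 and 6 behind it.

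Among partners of Numb and other fate determinants 0 passed. Of 11, 6 were tested by counts, 4 above 0 and 2 below, with a median edgeR log2 fold change of 0.16, while in limma 3 of 11 were above 0 and 8 below, with a median of -0.41. All genes tested split 2912 above and 2847 below in edgeR, and 3661 above and 8858 below in limma. Trim32, a ubiquitin ligase, was at 0.44 ± 0.33 SE (edgeR adjusted p = 0.741), and the RNA-binding protein Stau1 was at 0.24 ± 0.34 SE (edgeR adjusted p = 0.895).

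**Figure D5:**
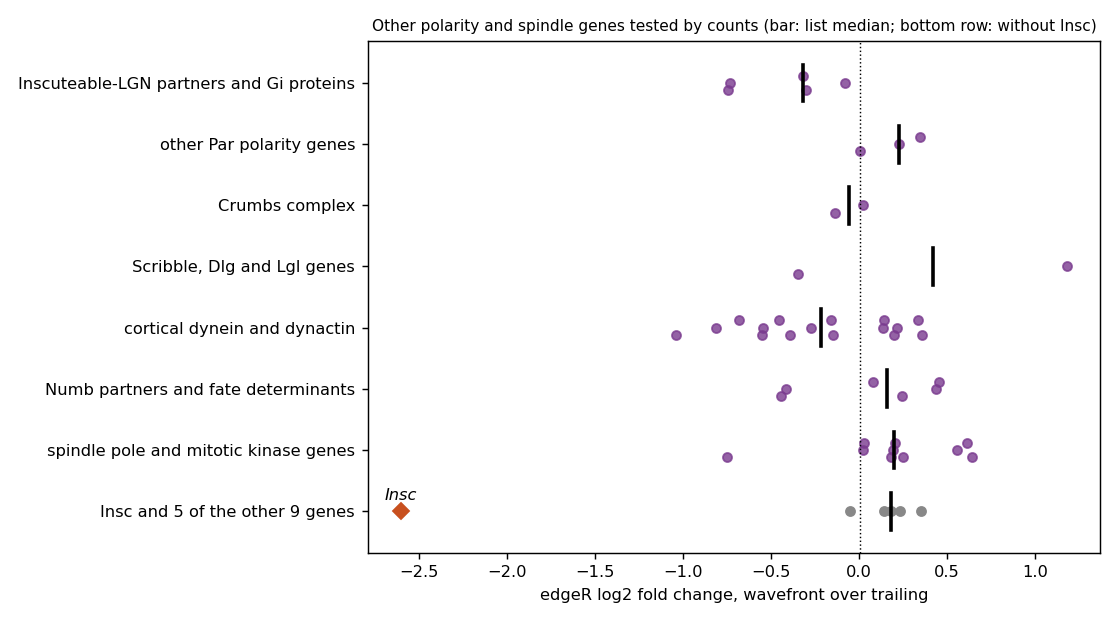
EdgeR log2 fold change, wavefront over trailing (horizontal axis), of 44 other polarity and spindle orientation genes tested by counts, 1 point per gene and 1 row per list, with the list median as a bar, the median of all genes as a dotted line, and Insc (diamond) with the other 5 tested members in the bottom row. Insc lies at -2.60, and the 44 other genes lie between -1.04 and 1.18. Genes with too few reads for edgeR are not drawn. In limma the 69 genes tested lay between -3.40 and 1.69. Of these, Lin7a (-3.40), Gnao1 (-2.83) and Mark1 (-2.80), with too few reads for edgeR, lay below Insc (-2.67).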

How the data were processed

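RNA-seq of 2 wavefront and 2 trailing libraries was read from 1 table. Alignment used STAR 2.5.2b on GRCm38 and counting used featureCounts, with bcl2fastq 2.17, FastQC 0.11.9 and DESeq2 also listed, per the submitters' processing notes (featureCounts settings: not given in the sources used here). For each gene and library the authors deposited 1 CPM value, per the file headers. The deposited BaseMean is a signal, the mean of scaled reads; the deposited fold change is on the log2 scale; its standard error and Wald statistic are deposited as scores; and the deposited p-value is unadjusted.

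Whole reads were recovered from CPM, and 100% of values came to a whole number within 0.01 reads. Rows that repeat an identifier (428) were used once; their reads stay in the CPM totals. Rows without a symbol numbered 958. Limma 3.58.1 with a mean-variance trend was run on log2(CPM + 1) after leaving out genes whose mean CPM did not exceed 1. EdgeR 4.0.16 (TMM factors, filterByExpr at 10 reads, quasi-likelihood test) was run on recovered reads and called 100 of 5759 genes, and DESeq2 1.42.0 was an alternative, under R 4.3.3. Tests were two-sided with Benjamini-Hochberg adjustment over all genes and a threshold of 0.05. Log2(CPM + 1) understates the change of low genes. The median log2 fold change over all genes was -0.35 in limma on deposited CPM, -0.06 with DESeq2 size factors, -0.09 outside ribosomal RNA, 0.01 in edgeR and -0.20 in edgeR scaled by library size alone. Reads carry no molecular identifiers, and exact binomial intervals cover counting error only. Limma and edgeR intervals use the spread among libraries. Outside ribosomal RNA, chi-square per degree of freedom between replicates was 2.85 at the wavefront and 2.06 behind it. Replicates thus differed beyond counting error, and the binomial intervals are too narrow for that spread. Exon lengths and coordinates are from GENCODE M21, on the same build.

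The members and the lists were chosen with earlier results of these data known. Named genes were the 10 members, any of 77 other genes past the threshold with the 2 of each list with the most reads, and the 5 genes most like Insc. Those of the 77 with an unadjusted p under 0.05 were named after this contrast was seen.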

Additional observations from a re-analysis of the deposited data

How the results depend on the processing

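No gene tested among the 9 other than Insc or among the 77 other polarity and spindle genes passed under the 11 alternatives of limma or the 9 of the count test. Limma tested 9 of the 9 (7 with a mean CPM above 10) and 53 to 73 of the 77, and the count test 5 to 9 of the 9 and 32 to 73 of the 77. Insc kept its sign in all of them, between -2.86 and -2.36 in limma and between -2.77 and -2.19 in the count test. Over all genes limma called 0, and 3 with log2(CPM + 5), 5 with no filter, 36 with a mean CPM above 10, 10 with DESeq2 size factors, 4 on reads outside ribosomal RNA and 52 with a replicate block. EdgeR called 100, DESeq2 15, and edgeR 61 with a replicate block. With 1 library left out edgeR called 40 to 143 (44 without trailing replicate 1 and 40 without trailing replicate 2) and limma 0; a lone library is then assumed to vary like the other group. Same-numbered libraries share only a number, with a correlation of deviations of 0.07 over 5759 genes, and the block changed no call among the members. The cause of these shifts was not tested.

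Signs of small differences did not hold, apart from Prkci in limma and Llgl1 in the count test. Prkci stayed above 0 in the 11 limma alternatives, between 0.12 and 0.96. Llgl1 stayed above 0 in the 9 alternatives of the count test, between 0.12 and 0.62. With DESeq2 size factors and on reads outside ribosomal RNA in limma, Pard3 was at 0.058 and 0.055 and Gpsm2 at 0.22 and 0.22. Pard6b was at 0.037 with log2(CPM + 5). Scaled by library size alone in edgeR, Gpsm1 was at -0.081, Gpsm2 at -0.041 and Numa1 at -0.0068. Pard3 was at 0.020 in DESeq2 and 0.065 with the replicate block in edgeR. With 1 library left out, limma turned Pard3 to 0.094 (without trailing replicate 2), Pard6a to 0.10, Pard6b to 1.09 and Gpsm1 to 0.49 (each without wavefront replicate 2). Gpsm2 turned to 0.38 without wavefront replicate 2 and 0.32 without trailing replicate 1, and Numa1 to -0.36 without trailing replicate 1. Numb turned to -0.13 without wavefront replicate 2 and -0.16 without trailing replicate 2, and Llgl1 to -0.36 without wavefront replicate 1 and -0.14 without trailing replicate 2. In edgeR, Pard3 turned to 0.30 without wavefront replicate 1 or trailing replicate 2, Gpsm1 to -0.83 without wavefront replicate 1 and Gpsm2 to -0.17 without trailing replicate 2. Numa1 turned to -0.025 without wavefront replicate 2 and -0.065 without trailing replicate 1. Depth limits Pard6a, Pard6b and Numb, which had at most 6 reads in a library.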

Other observations

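Of the 69 other polarity and spindle genes tested in limma, 7 had an unadjusted p under 0.05, where 6.85% of all genes did, and all 7 had too few reads for the count test. They were chosen by this contrast, and some passed the filter on low values through their trailing reads alone, so their values are a description. Of the 7, 0 passed after adjustment over all genes (limma adjusted p = 0.68 for each). All 7 were below 0 in limma, where the median of all genes was -0.35. Lin7a had 0 and 0 reads at the wavefront and 7 and 3 behind it, while Lin7c, which encodes a related scaffold, had 103 and 28 at the wavefront and 104 and 65 behind it. Numbl, the relative of Numb, had 1 and 0 reads at the wavefront and 7 and 2 behind it. Gnao1, the Go alpha subunit abundant in neurons, had 5 and 0 reads at the wavefront and 10 and 11 behind it. Mark1, a Par-1 family kinase, had 0 and 1 reads at the wavefront and 6 and 8 behind it. Dlg2, a scaffold of neuronal synapses, had 4 and 2 reads at the wavefront and 14 and 9 behind it. Frmpd1, which binds AGS3 and LGN, had 1 and 0 wavefront reads and 6 and 2 trailing reads, and Lnx1, a ubiquitin ligase that binds Numb, had 1 and 0 wavefront reads and 4 and 3 trailing reads. Enteric neuron markers were lower in the same libraries, and their part in these values was not tested. In edgeR the 3 genes of the 44 with an unadjusted p under 0.05 were others. Dctn5 and Dynll1 were lower at the wavefront (log2 fold change -1.04 and -0.68), and Dlg3 was higher (1.18).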
